A study of Homo sapiens with 9 samples.

Results

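Total RNA of HEK293 cells with a hairpin against YAP was compared with that of wild-type HEK293 cells on bead arrays, 3 arrays a side, and the difference was described across all genes that could be measured. A probe was a member of the comparison when its detection p, the rank of its signal among negative control beads, was under 0.05 on at least 3 of these 6 arrays, and 20787 of the 47231 probes on the array met that rule. Of these, 17043 were detected on all 6 arrays, 461 on the 3 hairpin arrays and no control, and 103 on the 3 controls and no hairpin array. In total, 14935 of the tested probes carried 1 gene symbol, for 11280 genes, and 5852 (28.2%) had none and entered only the counts of probes.

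HEK293 is a line of human embryonic kidney cells that were transformed with adenovirus DNA and express early adenoviral proteins, among them proteins that bind RB and p53. The control group was wild-type HEK293 by its labels. The other group is titled a Yap knockout, its source names cells with a Yap hairpin (an RNA that lowers a transcript by RNA interference), and the design text speaks of knockdown, so it is called the YAP knockdown here. The samples came from separate experiments by the design text. Another group, HEK293 with a hairpin against angiomotin (AMOT), supplied 3 more of the series' 9 arrays and entered the fit for its estimate of the spread. None of the labels names a control hairpin, and they do not say which hairpin sequence was used or whether the cells are 1 clone, so effects of a vector, a selection or a clone cannot be told apart from those of lower YAP1. Passage, delivery and time of harvest were not stated.

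YAP is a coactivator that has no DNA-binding domain of its own. The kinases MST1 and MST2 (STK4 and STK3) activate LATS1 and LATS2, which phosphorylate YAP so that it is held in the cytoplasm or degraded, and unphosphorylated YAP enters the nucleus and binds TEAD factors at enhancers of genes for growth, adhesion and survival. Angiomotin proteins bind YAP and hold it outside the nucleus or at junctions.

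Median raw signals lay between 185 and 208 on the controls and between 180 and 184 on the YAP knockdown arrays. Probes detected numbered 19831 to 20397 on the controls and 20866 to 21709 on the knockdown, so each knockdown array detected more probes than each control; the part of this in the results was not tested. Across the tested probes the correlation of log2 levels was 0.9881 to 0.9913 between controls, 0.9925 to 0.9938 between knockdown arrays and 0.964 to 0.9683 between the groups, and the first principal component of the 6 arrays held 71.3% of the variance and parted the groups. Among marker genes of HEK293, 5 were measured. VIM, an intermediate filament protein, had mean log2 levels of 14.35 in the controls and 14.52 in the knockdown, and the neurofilament genes NEFM (11.17 and 11.69) and NEFL (8.63 and 8.59) and the keratin gene KRT8 (8.04 and 9.32) were detected on all arrays, whereas KRT18 was at the limit of detection and PAX2 and LHX1 did not pass the detection rule. None of the listed endothelial (5), erythroid (4) or squamous (3) markers passed it. Of fibroblast markers 2 of 6 passed (summed log2 level 7.22 to 7.56 in the controls, 7.58 to 7.73 in the knockdown), of hepatocyte markers 2 of 4 (7.40 to 7.91 and 8.14 to 8.33), of leukocyte markers 1 of 6 (6.18 to 6.46 and 6.19 to 6.38) and of glial markers 2 of 4 (9.11 to 9.30 and 8.64 to 8.93).

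YAP1, on chromosome 11 at 102110447 to 102233424 (gene position, GRCh38.p14), had log2 levels of 10.63, 10.71 and 10.64 on the controls and of 8.79, 8.79 and 8.93 on the knockdown arrays. All 3 knockdown arrays lay below all 3 controls, with a 3.54-fold lower mean (log2 change -1.82, SE 0.10, n = 3 arrays per group, limma adjusted p = 2.3e-06). Here and below, a log2 change is the knockdown mean minus the control mean, its standard error comes from one limma fit to all 9 arrays, and a gene is said to rise or fall only where the 2-sided p, adjusted by the Benjamini-Hochberg method over the 20787 probes, was under 0.05. The transcript was still detected on every knockdown array.

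Among the TEAD factors and their cofactors 7 genes were measured, of which 2 rose and 1, YAP1 itself, fell (28.6% and 14.3%). TAZ (WWTR1) was not among the 7. Over all 11280 measured genes 25.1% rose and 20.8% fell. VGLL4, a protein that competes with YAP for TEAD, had levels of 10.76, 10.74 and 10.48 on the controls and 11.86, 11.87 and 11.49 in the knockdown, and its change of 1.08 (SE 0.14, adjusted p = 0.00031) left no overlap between the groups. TEAD3, a DNA-binding partner of YAP, went from 6.69, 6.74 and 6.68 to 7.58, 7.95 and 7.63 (1.02, SE 0.18, adjusted p = 0.0016), also without overlap. TEAD1 (-0.18), TEAD2 (-0.10), TEAD4 (-0.17) and VGLL2 (0.06) were not called, but TEAD1 was called lower without control 1 (-0.61, adjusted p = 0.027). Of 17 measured kinases and cofactors of the Hippo pathway 4 rose and 4 fell, 23.5% each way, which is close to the shares over all genes. The kinases TAOK3 (0.71), STK3 (0.51) and MAP4K4 (0.45) and the scaffold WWC1 (0.41) rose, while MOB1A, which activates LATS1 and LATS2, fell by 0.80 (SE 0.12, adjusted p = 0.00052) and AMOT by 0.57. LATS1 and TAOK1 were also called lower, by 0.61 and 0.90, LATS1 to a mean under the limit of detection, but both calls were lost without control 1, without control 3 or without knockdown array 1, among other settings; the 3 knockdown values of TAOK1 were 8.81, 8.92 and 10.03, the last of them inside the range of the controls. LATS2 (-0.55, adjusted p = 0.079) was not called, though it was called lower without control 1 (-0.76, adjusted p = 0.027), and neither were the other 8 members, among them STK4 (0.19), SAV1 (0.13) and NF2 (-0.16).

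Of 13 measured genes that are widely used as reporters of YAP and TAZ activity, 2 were higher and none lower, and their median log2 change was 0.04, against 0.03 over all 11280 genes. The matricellular genes CCN1 and CCN2, which are classic outputs of YAP and TEAD, were not called by their brightest probes (-0.09 and -0.08; the other CCN2 probe stood at -0.39 and was called lower). ANKRD1, a nuclear ankyrin-repeat protein, had levels of 6.0, 6.0 and 5.35 on the controls, whose mean lay under the limit of detection, and of 6.28, 6.60 and 6.48 in the knockdown. Its rise of 0.67 (SE 0.18, adjusted p = 0.016) did not pass without knockdown array 2 (adjusted p = 0.056). ANKRD1 was lower than in the AMOT knockdown (-1.83, adjusted p = 0.00026), where its mean was 8.28. Of the 13 reporter genes 3 were lower than in the AMOT knockdown and 1 higher. GADD45A, which is also a p53 target, went from 10.29, 10.28 and 10.20 to 11.46, 11.79 and 11.34 (1.27, SE 0.12, adjusted p = 4.6e-05). Its 3 knockdown arrays lay above all controls. The promoter window of ANKRD1 is printed here because it holds the TEAD motif GGAATG 2 times, starting 220 and 128 bases before the gene start. It spans chr10:90921038-90921337 on the minus strand in RefSeq's GRCh38.p14, 250 bases before to 50 after the start, with the matches on either strand in capitals.
ANKRD1: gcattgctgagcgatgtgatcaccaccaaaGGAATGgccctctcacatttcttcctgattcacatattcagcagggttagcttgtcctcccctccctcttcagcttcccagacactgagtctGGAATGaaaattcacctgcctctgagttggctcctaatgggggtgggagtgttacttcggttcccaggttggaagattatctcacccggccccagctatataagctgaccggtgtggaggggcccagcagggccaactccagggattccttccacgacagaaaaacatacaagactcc
Of the 9102 tested genes matched to such a window, 10.4% held GGAATG on either strand, against 12.7% of the 495 genes called higher by at least 2-fold, 8.68% of the 219 called lower by at least 2-fold and 14% of all 27305 windows. A match is a run of letters and not a measured site.

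Over all probes, 8397 (40.4%) were called in either direction, 4144 (19.9%) higher and 4253 (20.5%) lower. By at least 2-fold, 948 probes (4.56%) were higher and 539 (2.59%) lower. Higher calls thus made up 49.4% of all calls, but 40.8% under median scaling of the tested probes and 60% when arrays were scaled on the median of all probes of the table, so the balance of directions depends on the scaling. With each gene represented by its brightest probe, 2826 of 11280 genes (25.1%) rose and 2351 (20.8%) fell. These shares are the background for every gene list. Of the 11280 genes, 255 were undetected in 1 group and detected in the other. Such genes passed the detection rule only through the group where they are higher, so their calls follow in part from the rule. Against the AMOT knockdown, a contrast that uses no control array, 1443 of the 11280 genes (12.8%) were higher and 1192 (10.6%) lower in the YAP knockdown. Of the 5678 probes with a mean log2 level under 7, 352 were higher by at least 2-fold and 123 lower, of the 5685 from 7 to 9 these numbers were 381 and 243, of the 5277 from 9 to 11 they were 174 and 130, and of the 1220 above 13 they were 1 and 2. Of 2957 genes with several tested probes 1865 had a call, all probes were called the same way for 774, and 75 had 1 probe higher and another lower. Probes of a gene could also differ in size: for HNRNPA1, an RNA-binding protein, 1 probe fell by 2.17 on the log2 scale and a brighter one stood at 0.04.

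**Figure D1:**
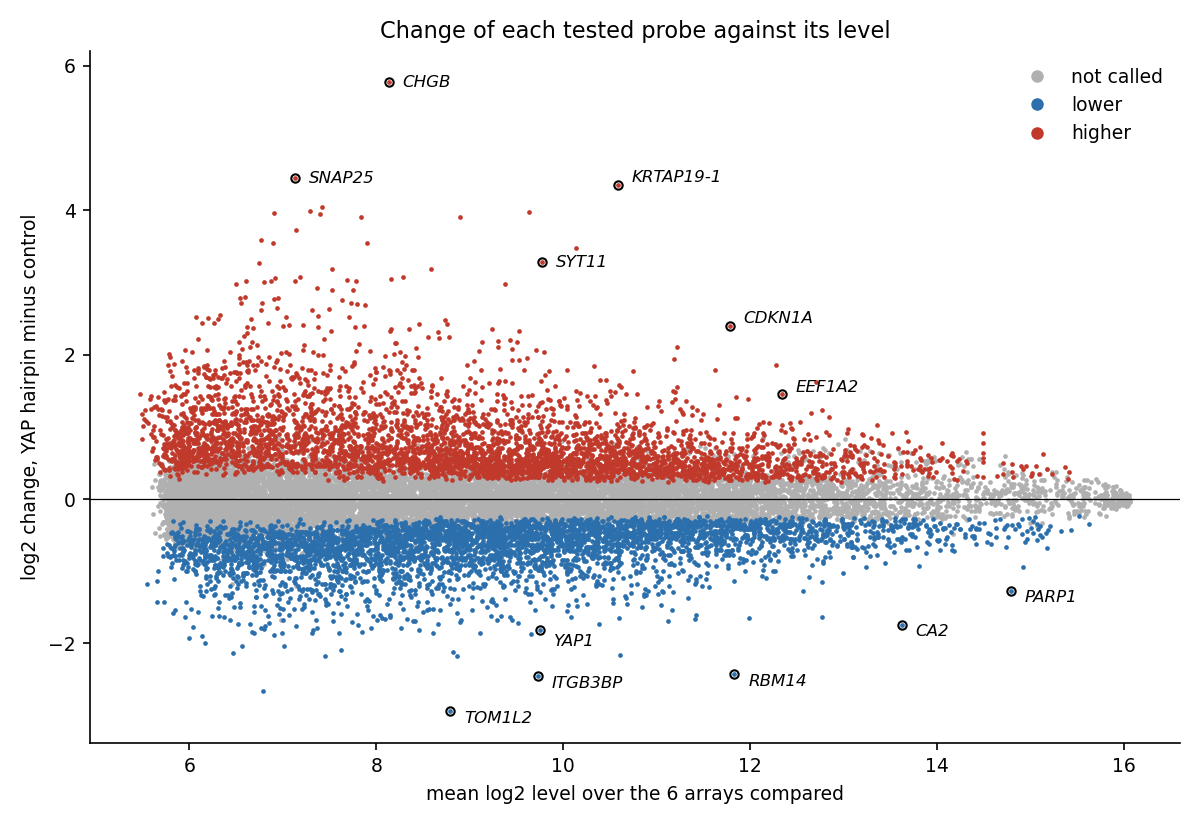
Each point is 1 of the 20787 tested probes, placed by its mean log2 level over the 6 arrays (x) and its log2 change, YAP knockdown minus control (y), in red where called higher, blue where called lower and grey where not called. Of the labelled genes CHGB, plotted at its fitted value though undetected on the controls (at least 33.6-fold higher), lies highest and TOM1L2 at -2.94 lowest.

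Genes of regulated secretion were among the large rises. Neuroendocrine cells and neurons store peptides in dense-core granules, whose matrix is built by chromogranins and secretogranins and whose cargo is cut by prohormone convertases. Of 12 measured genes of granule cargo and processing 10 rose and none fell, with a median log2 change of 1.40, or 1.03 with lower bounds in place of the values of genes below detection on the controls, against 25.1% rising and a median of 0.03 over all genes. Of the 12, 3 were below detection on the controls and passed the detection rule only through the knockdown arrays. CHGB, chromogranin B, was undetected on the controls (5.12, 5.21 and 5.40) and had levels of 11.01, 11.05 and 11 in the knockdown. It was at least 33.6-fold higher (adjusted p = 4.9e-09), where a lower bound sets the brighter mean against the signal at which detection ended on the dim arrays. CHGA, chromogranin A, was detected on all arrays and went from 8.02, 7.78 and 7.87 to 10.97, 10.64 and 10.97 (7.86-fold, log2 change 2.98, SE 0.12, adjusted p = 4.6e-07). In both genes all 3 knockdown arrays lay above all 3 controls. SCG3, a secretogranin that sorts chromogranins into granules, was at least 8.29-fold higher. Its other probe rose by 1.83. VGF, a neuropeptide precursor, rose by 1.75. SCG2, another granule matrix protein, was called higher from a control mean under the limit of detection, with 1 of 3 controls detected. PCSK1N (0.07) and CADPS (-0.14) were the members not called.

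Synaptic vesicles share much of this machinery, and 12 of 17 measured genes of vesicle release rose and none fell, with a median of 0.91. SNAP25, the plasma membrane SNARE of neurons, was undetected on the controls at 4.92, 5.0 and 4.81 and stood at 9.32, 9.43 and 9.29 in the knockdown, at least 10.5-fold higher (adjusted p = 7.1e-09). SYT11, a synaptotagmin, went from 8.20, 8.24 and 7.95 to 11.40, 11.36 and 11.47 (9.7-fold, log2 change 3.28, SE 0.11, adjusted p = 1.8e-07). SYN1, a phosphoprotein that tethers vesicles, went from 6.97, 6.85 and 7.16 to 10.34, 10.21 and 9.96 (9.03-fold, 3.18, SE 0.12, adjusted p = 3.6e-07). None of these groups overlapped. The vesicle protein SYP (2.36) and the active-zone scaffold BSN (1.48) rose as well. Set against the AMOT knockdown, 10 of the 17 genes were higher in the YAP knockdown and none lower, SYT11 by 3.03 (adjusted p = 7.1e-07) and SNAP25 by 3.18. Of the granule genes 5 were higher than in the AMOT knockdown, CHGB by 4.28, and 1 was lower.

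**Figure D2:**
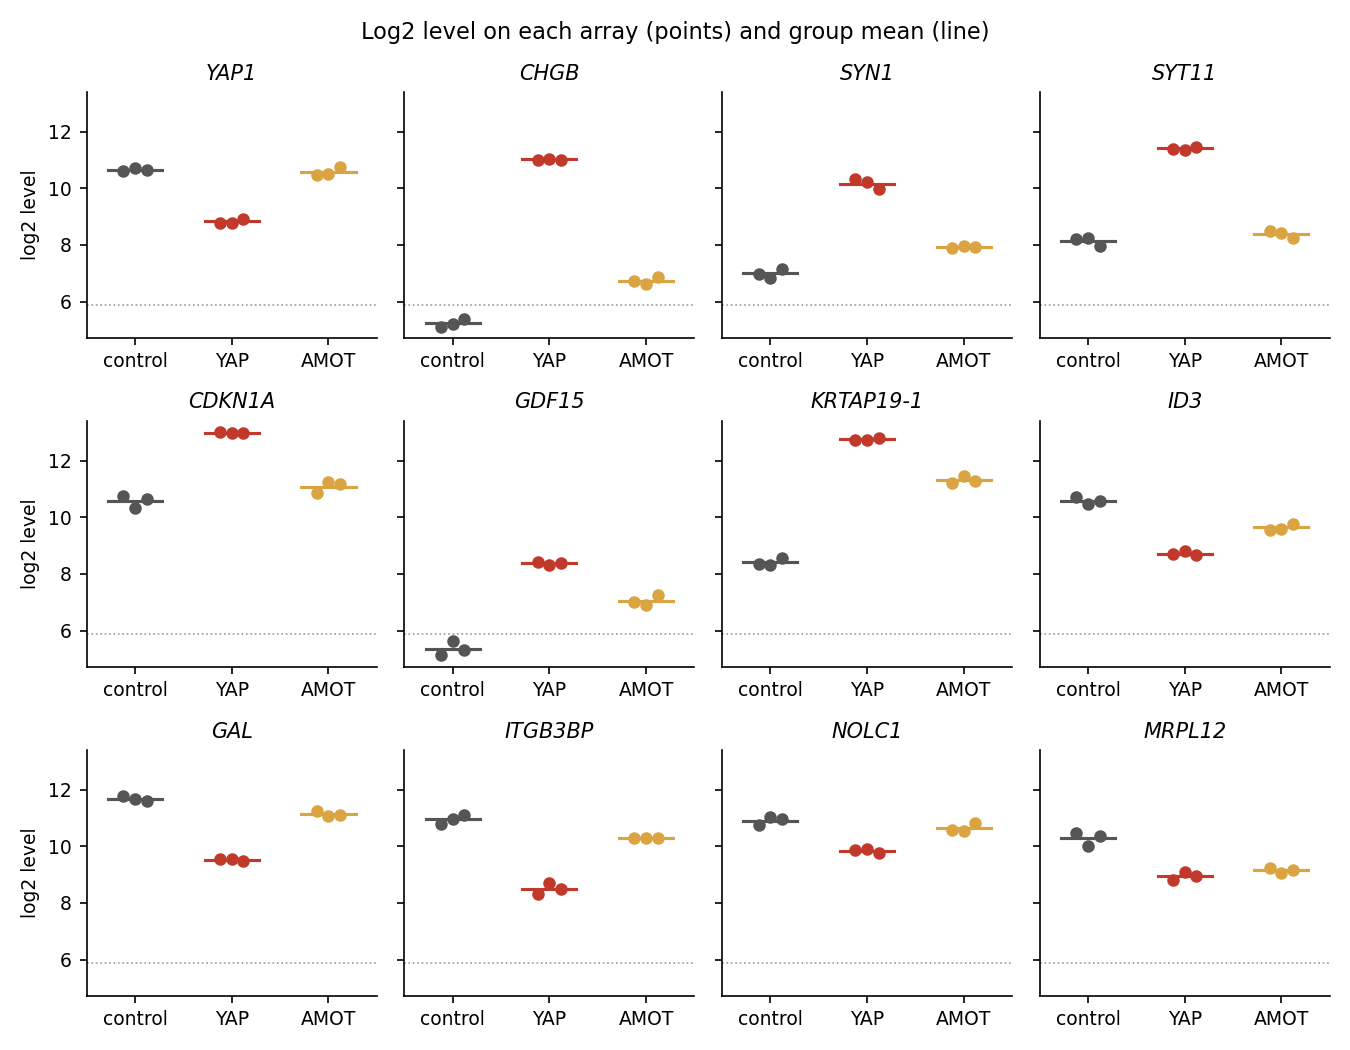
Log2 level (y, the same scale in every panel) of 12 genes on each of the 3 control, 3 YAP knockdown and 3 AMOT knockdown arrays (points), with the group mean as a line and the mean limit of detection dotted. In each panel the 3 YAP knockdown points lie apart from the 3 control points, and CHGB and GDF15 lie under the limit on the controls.

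Promoter windows of CHGA, VGF and SYN1 are printed because these risen genes each hold a full cyclic AMP response element, TGACGTCA, which is its own reverse complement. The matches, in capitals, start 54, 79 and 159 bases before the start site on which the window is built, which in CHGA and VGF lies inside the span of the gene record and in SYN1 at its edge. The windows are chr14:92922900-92923199 on the plus strand, chr7:101165520-101165819 on the minus strand and chrX:47619808-47620107 on the minus strand (RefSeq, GRCh38.p14).
CHGA: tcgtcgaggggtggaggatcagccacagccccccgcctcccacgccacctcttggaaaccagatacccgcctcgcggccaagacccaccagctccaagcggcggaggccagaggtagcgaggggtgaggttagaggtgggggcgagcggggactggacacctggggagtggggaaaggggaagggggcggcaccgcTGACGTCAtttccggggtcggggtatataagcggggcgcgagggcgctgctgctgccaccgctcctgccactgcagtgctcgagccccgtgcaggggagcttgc
VGF: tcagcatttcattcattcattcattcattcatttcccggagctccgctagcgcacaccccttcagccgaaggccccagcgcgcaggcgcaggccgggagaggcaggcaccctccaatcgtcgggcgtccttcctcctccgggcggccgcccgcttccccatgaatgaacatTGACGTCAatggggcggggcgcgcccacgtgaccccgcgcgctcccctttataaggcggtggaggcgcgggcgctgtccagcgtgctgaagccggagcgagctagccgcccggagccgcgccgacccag
SYN1: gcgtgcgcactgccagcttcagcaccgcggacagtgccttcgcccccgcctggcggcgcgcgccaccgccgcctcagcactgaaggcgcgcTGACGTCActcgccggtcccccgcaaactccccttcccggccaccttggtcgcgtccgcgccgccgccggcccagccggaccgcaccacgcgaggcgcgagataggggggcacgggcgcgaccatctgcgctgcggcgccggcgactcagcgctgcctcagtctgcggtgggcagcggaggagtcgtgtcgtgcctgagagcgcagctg
The element was in 2 of the 8 granule genes and 1 of the 15 release genes with a window, in 3.53% of all tested genes, in 2.63% of those called higher by at least 2-fold and in 3.2% of those called lower by at least 2-fold. The variant TGACGTAA was in 0.78% of tested genes.

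Genes of the neuronal cytoskeleton and axon were split. Of 26 measured, 14 rose and 3 fell (median 0.37). NMNAT2, which makes NAD in axons and keeps them alive, was at least 10.7-fold higher. CRMP1, a cytosolic mediator of semaphorin signals, went from 8.66, 8.35 and 8.18 to 11.94, 11.75 and 11.91 (3.47, SE 0.13, adjusted p = 3.5e-07), without overlap. The brighter STMN2 probe, for a tubulin-binding growth cone protein, rose by 3.90 from a control mean under the limit of detection, and its dimmer probe was at least 11.2-fold higher. SARM1, an NAD-cleaving enzyme that drives axon degeneration and so works against NMNAT2, rose from 6.81, 6.23 and 6.28 to 9.15, 9.21 and 9.05 (2.70, SE 0.17, adjusted p = 4.8e-06). The neuronal enolase ENO2 rose by 2.09, the tau gene MAPT by 1.99 and the axonal kinesin KIF1A by 1.85. Against the AMOT knockdown 11 of the 26 were higher and 3 lower. The AMOT knockdown means of NMNAT2 (7.99) and CRMP1 (10.07) lay between those of the controls and the YAP knockdown. For the brighter STMN2 probe the AMOT knockdown mean (6.28) lay near that of the controls (5.89). KIF1A, with an AMOT knockdown mean of 13.01, was not called between the knockdowns (0.19, adjusted p = 0.21).

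Of 38 measured subunits of voltage-gated and potassium channels 22 rose and 1 fell (median 0.54, or 0.50 with lower bounds). Of the 38, 9 were undetected in 1 group, against 255 of all 11280 genes, so part of the count follows from the detection rule. The sodium channel subunit SCN3B was at least 4.50-fold higher and the calcium channel subunit CACNG6 at least 4.13-fold higher, both undetected on all controls. Both were detected on all 3 AMOT knockdown arrays, with means of 7.21 and 8.19. SCN3B was higher in the YAP than in the AMOT knockdown (0.91, adjusted p = 0.00041), and CACNG6 was not called (-0.20, adjusted p = 0.32). In this contrast 13 of the 38 genes were higher and 3 lower. HCN3, a pacemaker channel, went from 8.86, 8.50 and 8.69 to 10.40, 10.32 and 10.68 (1.78, SE 0.13, adjusted p = 1.3e-05). KCNK12 rose by 1.96 from a control mean under the limit of detection. SLC8A2, a sodium-calcium exchanger of neurons, was at least 5.38-fold higher, and CELF3, a splicing regulator of neurons, at least 5.23-fold. Of 40 axon guidance genes 12 rose and 2 fell (30% and 5%, median 0.33). Over all genes 25.1% rose, which is close to the share in this list, and 20.8% fell. The netrin receptor UNC5A was at least 6.59-fold higher, PLXNB2, a semaphorin receptor, rose by 0.86 and the ligand SEMA3F was at least 1.29-fold higher, while SLIT2, a repellent ligand, fell by 1.00 from 12.77, 12.78 and 12.68 to 11.51, 11.53 and 12.19. UNC5A and SEMA3F were undetected on all controls and passed the detection rule only through the knockdown arrays.

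Regulators of neuronal genes moved in both directions. Of 15 measured neuronal transcription factors 7 rose and 3 fell (median 0.11). LHX2, a LIM-homeodomain factor, rose by 1.63 and the basic helix-loop-helix factor NHLH2 by 1.39, whereas ISL1, a LIM-homeodomain factor of motor neurons, fell by 1.00 from 11.47, 11.62 and 11.37 to 10.48, 10.55 and 10.43. FOXN4, a forkhead factor of retinal and spinal progenitors, went from 6.55, 6.73 and 6.60 to 9.61, 9.78 and 9.65 (3.05, SE 0.11, adjusted p = 2.9e-07). Its AMOT knockdown mean was 9.33, and the YAP knockdown was not called different from it (0.35, adjusted p = 0.052). REST, the repressor that silences neuronal genes outside neurons, was not called (-0.16, SE 0.28, adjusted p = 0.69, levels 5.76 to 6.52 on the controls and 5.81 to 6.12 in the knockdown), but these levels lie at the limit of detection, so a fall could hardly be measured; its value was looked up after those of its corepressors were seen. Of 12 measured genes of its complexes 6 rose and none fell, and the corepressor RCOR2 rose by 1.15. Of 21 SWI/SNF remodelling subunits 5 rose and 3 fell (median 0.08). ACTL6B, the actin-related subunit of the neuronal form, was undetected at 5.31, 5.27 and 5.29 on the controls and stood at 9.33, 9.30 and 9.22 in the knockdown, at least 10.1-fold higher (adjusted p = 1.6e-07). BRD9, a subunit of the non-canonical form, fell by 1.34 (SE 0.10, adjusted p = 1.3e-05), from 11.57, 11.35 and 11.67 to 10.23, 10.17 and 10.17.

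Large rises outside the neuronal genes were those of keratin-associated proteins, small cysteine- or glycine-rich proteins of the hair shaft. Of 8 measured 6 rose and 1 fell, and 3 of the 8 passed the detection rule only through the knockdown arrays. KRTAP19-1 went from 8.34, 8.32 and 8.56 to 12.74, 12.74 and 12.79 (20.4-fold, 4.35, SE 0.10, adjusted p = 2.5e-08), which made it the largest rise among genes detected on all 6 arrays. KRTAP19-6 rose by 3.97, KRTAP20-2 was at least 7.65-fold higher, KRTAP21-2 at least 6.86-fold and KRTAP19-4 at least 6.09-fold. The 6 risen genes lie together on chromosome 21 between 30479706 and 30747259 (GRCh38.p14), and the other measured members, KRTAP10-3 (0.03) and KRTAP10-11 (-0.58), belong to another cluster of that chromosome. Members of such families are close in sequence and signal may be shared between their probes. Of the 30 other measured genes around the cluster, within a window chosen after its values were seen, 6 rose and 6 fell. The nearest measured neighbours MAP3K7CL (-0.35, adjusted p = 0.19) and TIAM1 (0.26, adjusted p = 0.097) were not called. All 6 risen members were also higher than in the AMOT knockdown, by 0.92 to 2.14. The AMOT knockdown itself had means of 11.32 for KRTAP19-1 and 10.08 for KRTAP19-6, against 8.41 and 7.65 on the controls. KRTAP19-4, KRTAP20-2 and KRTAP21-2, undetected on the controls, were detected on all 3 AMOT knockdown arrays. The AMOT knockdown was not tested against the controls.

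**Figure D3:**
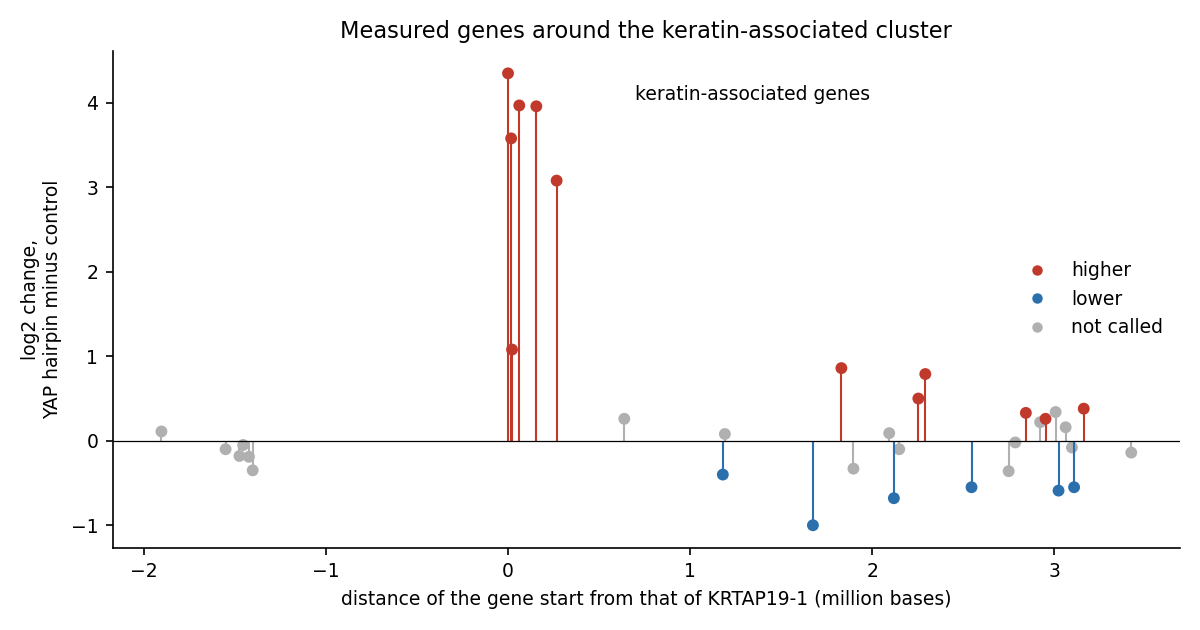
Log2 change, YAP knockdown minus control (y), of the measured genes around the keratin-associated cluster, by the distance of their start from that of KRTAP19-1 in megabases (x), in red where called higher, blue where lower and grey where not called. The 6 keratin-associated genes, those undetected on the controls at their fitted values, stand between 1.08 and 4.35, and no neighbour exceeds 0.86.

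Other large rises had no list in common. TCEAL7, a small nuclear protein of the TCEAL family, went from 7.05, 7.03 and 6.74 to 10.82, 10.79 and 10.92 (15-fold, 3.91, SE 0.12, adjusted p = 1.6e-07), while of the 11 measured TCEAL and BEX genes 4 rose and 1 fell. HSPB8, a small heat shock protein that works with autophagy of misfolded proteins, went from 7.08, 6.62 and 6.53 to 9.72, 9.97 and 9.79 (3.08, SE 0.15, adjusted p = 1.4e-06). The autophagy receptor OPTN rose by 1.62. The sorting receptor SORCS1 rose by 2.71, the orphan receptor GPR19 by 3.02, the lipoprotein APOE by 2.52 and the activin subunit INHBE by 2.48. The calls of these genes against the AMOT knockdown differed: SORCS1, undetected on all 3 AMOT knockdown arrays, was called higher than there (adjusted p = 1.4e-06) and TCEAL7 was 2.57 higher, whereas HSPB8 (-0.26, adjusted p = 0.28), APOE (0.27, adjusted p = 0.15) and INHBE (-0.24, adjusted p = 0.15) were not called. Among bright transcripts, with a mean log2 level above 12 in either group, the translation factor EEF1A2 of neurons and muscle rose by 1.45, the cadherin CELSR3 by 1.79 and the antisense transcript TYMSOS by 1.94. CELSR3 (0.63, adjusted p = 0.0054) and TYMSOS (0.52, adjusted p = 0.011) were also higher than in the AMOT knockdown, whereas EEF1A2 was not called (-0.06, adjusted p = 0.77). Of 27 interferon-stimulated genes 8 rose and 6 fell (median 0.01). ISG15, a ubiquitin-like protein, was at least 5.08-fold higher and the membrane protein BST2 at least 3.64-fold higher, both undetected on all controls.

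The protein p53 responds to DNA damage and other stress by inducing genes of arrest, repair and death. Of 23 measured target genes of arrest and repair 12 rose and 2 fell, with a median of 0.45. CDKN1A, the cyclin-dependent kinase inhibitor p21, went from 10.77, 10.32 and 10.66 to 13.01, 12.97 and 12.97 (5.29-fold, 2.40, SE 0.14, adjusted p = 3.3e-06), without overlap. GDF15, a secreted stress cytokine, was at least 5.38-fold higher, with knockdown levels of 8.41, 8.33 and 8.39. SPATA18, a mitochondrial quality-control protein, rose by 1.96 and DDB2, which recognises ultraviolet damage, by 1.54. Set against the AMOT knockdown 15 of the 23 were higher and none lower, CDKN1A by 1.90 (adjusted p = 5.3e-05). The AMOT knockdown means of CDKN1A (11.09), GDF15 (7.05), SPATA18 (8.36) and DDB2 (6.61) lay between those of the controls and the YAP knockdown. Of 28 genes of apoptosis 11 rose and 2 fell (median 0.30). The decoy death receptor TNFRSF10D rose by 1.27 and PIDD1, a death-domain protein that p53 induces, by 1.22. The executioner caspase CASP6 fell by 1.15, and BCL2L11, the death activator BIM, fell by 1.25 by its brighter probe.

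Genes of cell division moved in both directions. Of 25 G1 cyclins, inhibitors and RB family genes 11 rose and 4 fell, with the pocket protein RBL2 rising by 0.91 and the S-phase cyclin CCNE2 falling by 0.89 to a mean under the limit of detection. Of 40 replication genes 4 rose and 11 fell (median -0.15). CDC6, which loads the replicative helicase, went from 8.33, 8.25 and 8.58 to 6.93, 6.69 and 6.47 (3.23-fold lower, -1.69, SE 0.15, adjusted p = 3.8e-05). Of 22 genes of nucleotide synthesis 2 rose and 10 fell (median -0.32). RRM2, the regulated subunit of ribonucleotide reductase, had control levels of 9.01, 10.12 and 9.99 and knockdown levels of 8.25, 8.26 and 8.52 (-1.36, SE 0.25, adjusted p = 0.0022), so control 1 lay nearest the knockdown. Of 43 mitosis genes 3 rose and 18 fell (median -0.27). The kinesin KIF20A fell by 0.98, the anaphase activator CDC20 by 0.78 and the kinase PLK1 by 0.62. Of 31 centromere and kinetochore genes 1 rose and 16 fell (median -0.29). ITGB3BP, the kinetochore protein CENP-R, went from 10.80, 10.95 and 11.11 to 8.30, 8.70 and 8.50 (5.47-fold lower, -2.45, SE 0.12, adjusted p = 1.5e-06), and MIS18A, which licenses deposition of the centromeric histone, fell by 1.00. Against the AMOT knockdown 10 mitosis genes and 7 centromere genes were lower, and none and 2 higher, with ITGB3BP at -1.80 (adjusted p = 3.9e-05).

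Ribosomal RNA is transcribed by RNA polymerase I in the nucleolus, modified by small nucleolar RNAs and assembled with ribosomal proteins by a large set of assembly factors. Of 52 measured assembly factors 38 fell and 1 rose, against 20.8% falling over all genes, and their median was -0.51, within -0.65 to -0.47 under the alternatives run. NOLC1, a nucleolar chaperone of small nucleolar particles, went from 10.75, 11.03 and 10.95 to 9.87, 9.91 and 9.77 (2.08-fold lower, -1.06, SE 0.12, adjusted p = 0.0001). BOP1, a maturation factor of the large subunit, went from 12.70, 12.60 and 12.65 to 11.55, 11.57 and 11.65 (-1.06, SE 0.08, adjusted p = 1.5e-05). In neither gene did the groups overlap. RRP12, a factor for export of the subunits, fell by 1.04 and MYBBP1A, a nucleolar protein that binds MYB and p53, by 1.02. The GTPase gene GNL3L fell by 1.10, with control 1 (10.67) closer to the knockdown (9.92, 9.87 and 10.48) than the other controls (both 11.45). Of 30 subunits and factors of RNA polymerases I and III 5 rose and 9 fell. The polymerase I subunit POLR1F fell by 1.02, POLR1G by 0.83, the polymerase III subunit POLR3B by 0.98 and UBTF, the upstream binding factor of ribosomal RNA genes, by 0.76. A dimmer UBTF probe stood at 0.03 and was not called. Of 9 measured genes of the MYC network 4 rose and 1 fell. MXD4, which pairs with MAX and represses MYC targets, rose by 0.96. MYC itself, named after its value was seen, was not called (0.05).

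Promoter windows of MYBBP1A and POLR1G are printed as the named fallen genes of these lists whose window holds the E-box CACGTG, the letters that MYC and MAX and the lysosomal factor TFEB can bind. The match, in capitals, starts 27 bases after the gene start in MYBBP1A (chr17:4555335-4555634, minus strand) and 12 bases before it in POLR1G (chr19:45406394-45406693, plus strand; RefSeq, GRCh38.p14).
MYBBP1A: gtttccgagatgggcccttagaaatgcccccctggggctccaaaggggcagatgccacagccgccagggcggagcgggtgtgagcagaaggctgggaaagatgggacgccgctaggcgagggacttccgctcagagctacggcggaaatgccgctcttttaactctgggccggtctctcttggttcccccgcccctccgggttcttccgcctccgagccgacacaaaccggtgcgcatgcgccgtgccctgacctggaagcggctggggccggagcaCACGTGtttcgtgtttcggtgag
POLR1G: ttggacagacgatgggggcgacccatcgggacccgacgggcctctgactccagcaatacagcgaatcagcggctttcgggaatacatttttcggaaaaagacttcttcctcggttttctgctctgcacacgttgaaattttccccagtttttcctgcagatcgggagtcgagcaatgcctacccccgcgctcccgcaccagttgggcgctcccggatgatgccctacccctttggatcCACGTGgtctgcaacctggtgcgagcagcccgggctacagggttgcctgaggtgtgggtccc
The E-box was in 17 of the 44 ribosome assembly genes with a window (38.6%), in 6 of 26 polymerase genes and in 10.6% of all tested genes. It was also in 12 of 38 lysosomal genes (31.6%), a list in which more genes rose than fell. Among all genes called higher by at least 2-fold 10.9% held it, and among those called lower by at least 2-fold 13.7%, which are shares of unequal sets and draw nothing about the factor.

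Cytosolic ribosomal proteins did not share the fall: of 63 measured 8 rose and 6 fell, and the median was 0.05. RPS24 fell by 1.73, from 11.49, 11.14 and 11.12 to 9.59, 9.54 and 9.45, and RPL36A also by 1.73, while RPL37 rose by 1.08 and RPL28 by 1.06. These genes have many near-identical pseudogenes, so a single probe's change is uncertain. Their mitochondrial counterparts did fall, 46 of 76 measured, with 4 rising and a median of -0.36. MRPL12, a large-subunit protein that also binds mitochondrial RNA polymerase, went from 10.46, 10.03 and 10.36 to 8.82, 9.10 and 8.97 (2.5-fold lower, -1.32, SE 0.13, adjusted p = 5.9e-05). MRPL35 fell by 1.27 and MRPL23 by 1.02. Of 73 respiratory chain and ATP synthase subunits 30 fell and 2 rose (median -0.23). The complex III subunit UQCRB fell by 1.29 by its brightest probe, but its other probes stood at 0.09 and -0.44 and were not called. The ATP synthase subunit ATP5MK was at least 2.17-fold lower. Of 28 genes of mitochondrial import 13 fell and 2 rose (median -0.28). Against the AMOT knockdown 11 of the 76 mitochondrial ribosomal proteins were lower and 2 higher, where 10.6% of all genes were lower and 12.8% higher. Of the 52 ribosome assembly factors 13 were lower than in the AMOT knockdown and 1 higher.

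Protein folding and breakdown moved unevenly. Of 41 proteasome genes 23 fell and none rose (median -0.35). The regulatory-particle subunit PSMD11 went from 8.90, 8.65 and 8.67 to 7.62, 7.55 and 7.78 (-1.09, SE 0.11, adjusted p = 5.7e-05), PSMD12 fell by 1.07 and the ATPase subunit PSMC4 by 0.92. Of 27 heat shock and cytosolic chaperone genes 5 rose and 12 fell, HSPB8 being the largest rise. Of 25 endoplasmic reticulum chaperones 4 rose and 11 fell. HSPA5, the major chaperone there, went the other way, from 10.33, 10.50 and 10.51 to 12.05, 11.83 and 11.91 (2.79-fold higher, 1.48, SE 0.10, adjusted p = 6e-06). Of 18 cytosolic tRNA synthetase genes 6 fell and none rose. Of 33 targets of ATF4, the transcription factor of amino acid and folding stress, 10 rose and 11 fell: NUPR1, a stress-induced chromatin protein, rose by 1.17, whereas CTH, which makes cysteine, fell by 1.28, and the cystine transporter SLC7A11 was at least 1.44-fold lower. Of 28 targets of NRF2, the regulator of antioxidant genes, 4 rose and 10 fell. GCLM, a subunit of the first enzyme of glutathione synthesis, went from 10.53, 10.56 and 10.53 to 9.34, 9.09 and 9.26 (-1.31, SE 0.09, adjusted p = 1e-05), and the haem-degrading enzyme HMOX1 fell by 1.29. A dimmer GCLM probe stood at -0.08 and was not called.

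**Figure D4:**
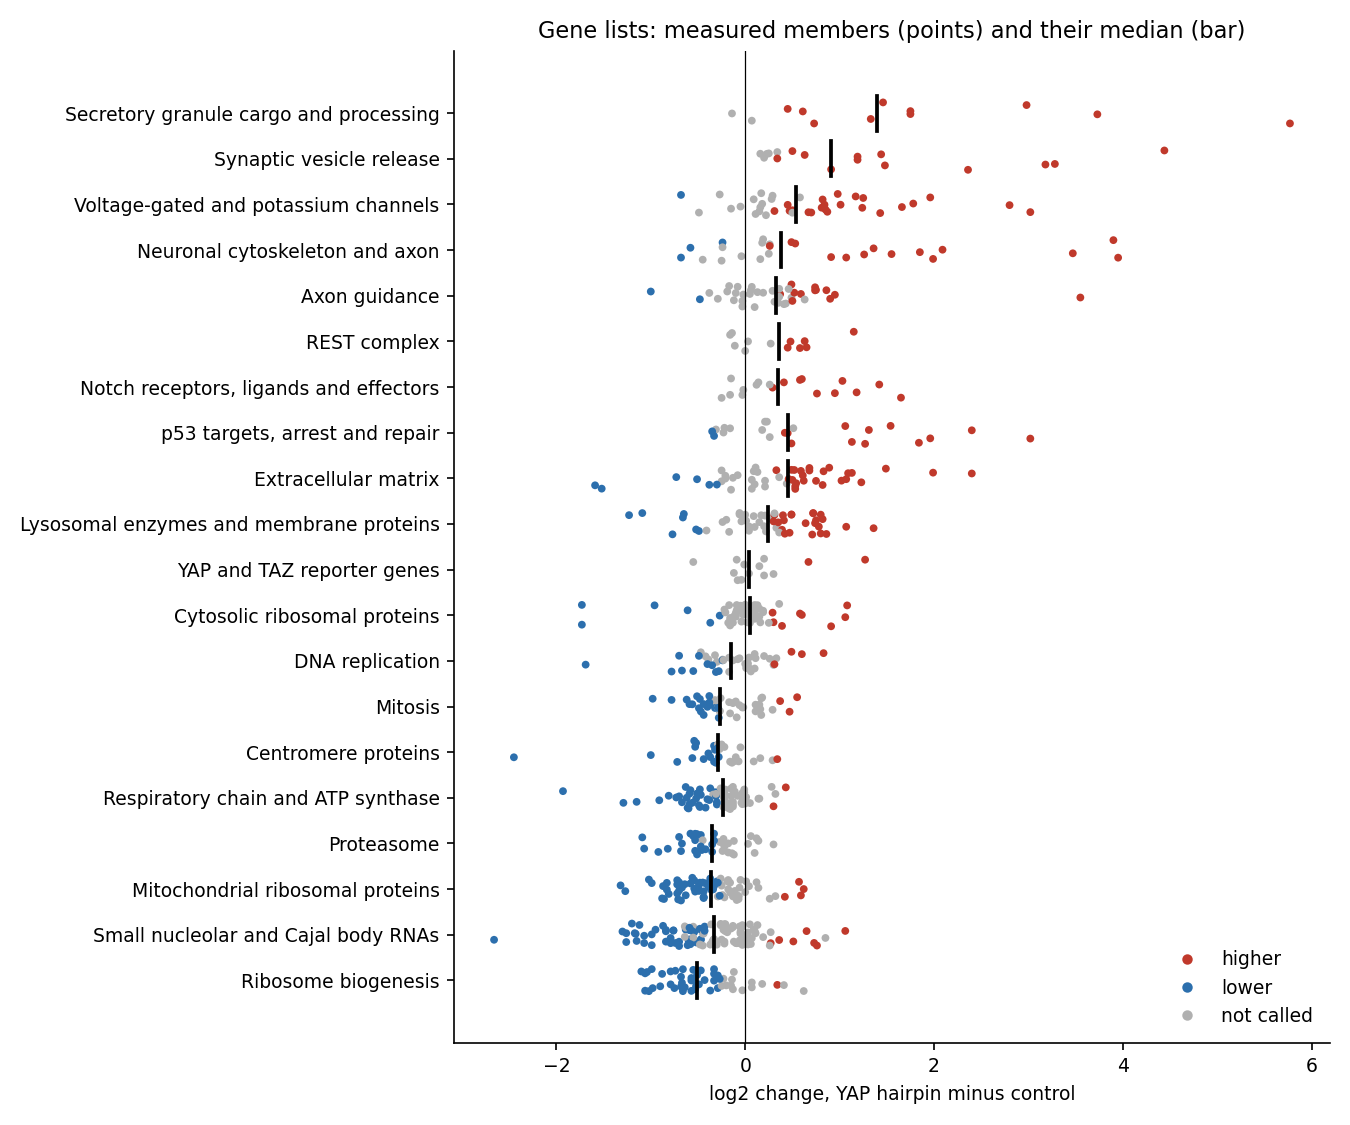
Log2 change, YAP knockdown minus control (x), of every measured member of 20 gene lists (y), in red where called higher, blue where called lower and grey where not called, with the median of the list as a bar. Medians run from 1.40 for granule cargo and processing to -0.51 for ribosome biogenesis, and reporter genes of YAP and TAZ lie at 0.04.

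Genes of splicing fell more often than they rose. Of 54 hnRNP and SR-type genes 22 fell and 6 rose (median -0.26), and of 50 core spliceosome genes 20 fell and 2 rose (median -0.20). NOVA1, a splicing regulator of neurons, fell by 1.58 from 8.41, 8.23 and 8.35 to 6.69, 6.93 and 6.63, the opposite direction to CELF3. HNRNPL fell by 0.98 and LSM6, of the U6 ring, by 1.03, while the helicase SNRNP200 rose by 0.92. RBM14, a paraspeckle protein, went from 13.08, 13.04 and 13 to 10.60, 10.66 and 10.61 (5.34-fold lower, -2.42, SE 0.08, adjusted p = 1.7e-07). It did not differ detectably from the AMOT knockdown (-0.13, adjusted p = 0.29).

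Among small nucleolar and other structured non-coding RNAs more fell than rose, though most were not called. Of 114 measured small nucleolar and Cajal body RNAs, which guide chemical modification of ribosomal and small nuclear RNA, 41 fell, 7 rose and 66 were not called (median -0.33). Set against the AMOT knockdown 30 of the 114 were lower and 3 higher. SCARNA14 went from 7.80, 8.48 and 8.07 to values under the limit of detection on all 3 knockdown arrays and was at least 4.83-fold lower (adjusted p = 1e-05). SNORD30 went from 8.62, 8.73 and 8.52 to 7.36, 7.38 and 7.36 (-1.26, SE 0.09, adjusted p = 8.6e-06). TERC, the template RNA of telomerase, fell by 1.81, from 8.31, 8.37 and 8.02 to 5.64, 6.54 and 7.08, a spread that left the groups apart. Its value on knockdown array 1 lay under the limit of detection of that array (5.88). RNY4, a Y RNA, fell by 1.70 and the U1 copy RNU1-3 by 0.87, and probes of U1 copies may share signal. Long non-coding RNAs went the other way, with 71 of 211 rising and 16 falling (median 0.23). Counts by transcript class were added after the lists were seen.

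Many small nucleolar RNAs are cut from introns of other genes, and 83 of the measured ones lay by position inside 63 tested genes, giving 87 pairs (strand was not used). Of the 31 fallen small RNAs with such a containing gene, some lay in genes that rose. In 11 pairs the small RNA fell and the containing gene rose, in 8 both fell and in 14 the containing gene was not called. Where the small RNA was not called, the containing gene rose in 13 pairs, fell in 8 and was not called in 29. Most of the 11 pairs come from SNHG1 and TAF1D, so they are not separate cases. SNHG1, a long non-coding RNA whose introns carry small nucleolar RNAs, went from 12.82, 13 and 13.10 to 13.41, 13.84 and 13.64 (0.65, SE 0.13, adjusted p = 0.0039), while SNORD30, SNORD31 (-0.59) and SNORD25 (-0.43) inside it fell. TAF1D, a polymerase I factor, rose by 0.52 while SNORA18 (-0.70), SNORA32 (-0.63), SNORD6 (-0.58), SNORA1 (-0.52) and SNORA25 (-0.47) inside it fell. Of 14 measured non-coding host transcripts (the SNHG genes, ZFAS1 and EPB41L4A-AS1, a set written after values were seen) 8 rose and none fell. The set leaves out DANCR, a long non-coding RNA that contains the fallen SNORA26 and was not called (-0.20, adjusted p = 0.1). The plot of small RNAs against the genes that contain them shows both directions of the containing gene beside falls of the small RNA.

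**Figure D5:**
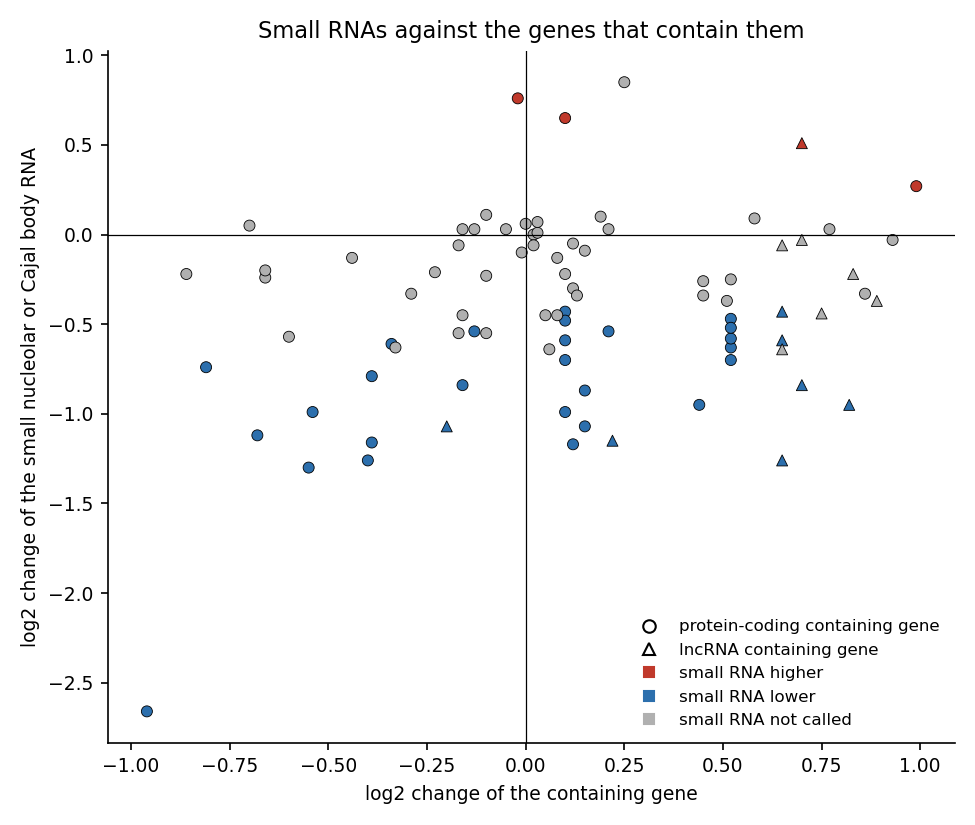
Each point is a small nucleolar or Cajal body RNA, placed by the log2 change of the tested gene that contains it (x) and by its own (y), both YAP knockdown minus control, with triangles where the containing gene is a long non-coding RNA and colour for the small RNA's call. Most points lie below 0 on the y axis on both sides of 0 on the x axis, with SCARNA14, undetected in the knockdown and plotted at its fitted value (at least 4.83-fold lower), the lowest.

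Signalling and surface genes changed in several directions. Notch receptors are cleaved on contact with ligands of neighbouring cells and switch on HES and HEY repressors, and of 18 measured genes of the pathway 10 rose and none fell (median 0.35). HES5 went from 7.46, 7.49 and 7.56 to 9.08, 9.23 and 9.16 (1.65, SE 0.09, adjusted p = 2.8e-06), the receptors NOTCH3 and NOTCH1 rose by 1.42 and 1.03, and the ligand JAG1 was called higher by 1.18 from a control mean under the limit of detection. HES5 was lower than in the AMOT knockdown (-0.84, adjusted p = 0.00044). The ID genes encode inhibitors of basic helix-loop-helix factors and are targets of BMP signals. ID3 went from 10.72, 10.47 and 10.59 to 8.70, 8.80 and 8.67 (3.65-fold lower, -1.87, SE 0.10, adjusted p = 2.6e-06), without overlap, and ID1 was undetected in the knockdown and at least 2.5-fold lower. The ligand BMP2 rose by 1.25 and its receptor BMPR2 by 1.30, and over the 22 TGF-beta and BMP genes 5 rose and 5 fell. Of 34 Wnt genes 12 rose and 7 fell, with the secreted protein DKK3 rising by 2.06, the receptor-removing ligase ZNRF3 by 1.36, and the feedback inhibitors NKD1 (at least 2.44-fold lower) and NKD2 (-1.11) falling.

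Of 48 genes of the extracellular matrix 25 rose and 6 fell, with a median of 0.45, or 0.35 with lower bounds. COL7A1, the anchoring fibril collagen, had control levels of 6.36, 7.29 and 6.35 and knockdown levels of 9.30, 8.75 and 9.13 (2.40, SE 0.25, adjusted p = 8.8e-05). EFEMP2, an elastic fibre protein, rose by 1.99 from a control mean under the limit of detection, whereas COL18A1, a basement membrane collagen, fell by 1.59 and the crosslinking enzyme LOX by 1.52. The smooth muscle genes TAGLN and ACTA2, targets of SRF, rose by 2.04 and 1.77, but over the 33 actin and SRF genes 8 rose and 8 fell. Of 54 lysosomal genes 23 rose and 7 fell (median 0.24): MANBA, which trims mannose chains, rose by 1.07, and NAGLU, which degrades heparan sulfate, fell by 1.23. Of 22 cholesterol genes 10 rose and 5 fell. INSIG1, which holds the sterol sensor in the endoplasmic reticulum, went from 12.13, 12.27 and 12.04 to 13.44, 13.30 and 13.40 (1.23, SE 0.10, adjusted p = 1.5e-05), and SREBF1, the transcription factor of lipid synthesis, fell by 1.01. Of 26 glycolysis genes 5 rose and 12 fell: the neuronal isoforms ENO2 and SLC2A3 rose, by 2.09 and 1.65, and the liver-type PFKL fell by 1.07.

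The largest falls of genes detected on all 6 arrays had no list in common. TOM1L2, an endosomal sorting protein, went from 10.21, 10.31 and 10.27 to 7.21, 7.35 and 7.40 (7.69-fold lower, -2.94, SE 0.13, adjusted p = 7.1e-07), and its other probe fell by 1.56. GAL, the neuropeptide galanin, went from 11.79, 11.68 and 11.59 to 9.55, 9.56 and 9.47 (4.47-fold lower, -2.16, SE 0.09, adjusted p = 7.2e-07), whereas the granule genes named above rose. SLC38A10, an amino acid transporter, fell by 2.18 and 1 probe of CSNK1A1, a kinase of the Wnt destruction complex, by 1.85, with its other probes at -0.56 and -0.92. Among bright transcripts CA2, carbonic anhydrase II, fell by 1.74, CHCHD10, a mitochondrial protein, by 1.65, and PARP1, which marks DNA breaks, went from 15.37, 15.50 and 15.39 to 14.20, 14.16 and 14.08 (-1.27, SE 0.09, adjusted p = 7.9e-06). TOM1L2 stood 1.35 higher than in the AMOT knockdown, where 2 of 3 arrays detected it. By contrast, GAL (-1.62), PARP1 (-0.83) and CA2 (-0.99) were lower in the YAP knockdown than in the AMOT knockdown. All of these contrasts had adjusted p under the threshold. For DACH1, MED23 and DSP the largest fall was at a probe undetected in the knockdown, and brighter probes differed from it: that of DACH1 fell by 0.81, those of MED23 stood at -0.58 (called) and 0.22 (not called), and that of DSP at -0.20 (not called).

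Lists with a median between 0.02 and 0.12 included, among others, those of autophagy (5 up and 5 down of 29), integrins and focal adhesion (6 and 4 of 32), histones (8 and 10 of 30), solute carriers (45 and 30 of 204), ZNF genes (70 and 57 of 340) and DNA repair (7 and 11 of 47). Of 23 HOX genes 4 rose and 8 fell (median -0.27). Of 13 genes of the kidney lineage 2 rose and 4 fell, with WT1, a regulator of nephron progenitors, falling by 1.08 and EYA3, a phosphatase and coactivator, by 1.84.

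By chromosome, the share of genes that rose ran from 20% on chromosome 5 to 33.9% on chromosome 22 and the share that fell from 14.8% on chromosome 19 to 25.2% on chromosome 5, over the autosomes and X. A running median over 21 neighbouring genes reached 0.5 in 3 stretches, all upward. They lay on chromosome 16 from 29302287 to 30189076 (23 genes, 12 up and 2 down), on chromosome 19 from 47713422 to 49362416 (34 genes, 17 up and 3 down) and on chromosome 22 from 37953663 to 39319623 (24 genes, 9 up and 6 down; GRCh38.p14). No stretch reached -0.5.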

How the data were processed

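Intensity values per probe and array, not normalized, and the detection p-value of each were deposited by the authors, per the file headers. No source here names the software. The series matrix deposited by the authors holds intensity values on a linear scale with nearly equal medians on all arrays, by a normalization that was not stated, and served only as an alternative. Arrays give no counts, so the 3 arrays a group limit the precision.

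Intensities were background-corrected with the detection p-values, offset by 16, normalized by quantiles and log2-transformed with neqc of limma 3.58.1 in R 4.3.3. A group-means model was fitted to all 9 arrays (6 residual degrees of freedom) for probes with a detection p under 0.05 on at least 3 of the 6 arrays compared, with Benjamini-Hochberg adjustment over these probes and 0.05 as the threshold. The procedure was tested on simulated data. Probes were named by the platform annotation, and genes and promoters by RefSeq GRCh38.p14 tables, which matched 14926 probes. In a gene list each gene is its brightest probe.

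Named genes are the 15 largest rises and 15 largest falls detected on all 6 arrays, the 10 brightest detected in 1 group alone each way, the 8 largest each way above log2 12, up to 5 called members a list, and all TEAD and Hippo members. CCN1, CCN2, CADPS, PCSK1N, KRTAP10-3, KRTAP10-11, MAP3K7CL, TIAM1, MYC, REST, VIM, NEFL, NEFM, KRT18 and the small RNAs and containing genes of the host comparison were named after their values were seen. Members and lists were chosen with earlier results of these data known. Alternatives covered scaling, background, offset, filter, arrays fitted, the series matrix, a replicate block and leaving out each array.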

Additional observations from a re-analysis of the deposited data

How the results depend on the processing

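YAP1 stayed lower under all alternatives run, at -1.90 to -1.56. Scaling on the median of all probes of the table, an alternative chosen after seeing the data, gave 3823 probes higher and 2553 lower, against 4144 and 4253; the cause was not tested. Leaving out 1 array at a time gave 3083 to 4126 higher and 3446 to 4205 lower. Replicate numbers did not pair the arrays (correlations of same-numbered deviations 0.03, -0.07 and 0.05); with the replicate number as a block, 3913 probes were higher and 4060 lower, and YAP1 stood at -1.82. Over the named genes and their alternatives, 7076 values kept their side of the threshold, 128 lost the call, 4 gained one and no call reversed. A value that was not called and changed sign without gaining a call counts among the 7076. TAOK1 lost its call without control 1 (adjusted p = 0.12), control 2 (0.056), control 3 (0.076), AMOT knockdown array 1 (0.06), YAP knockdown array 1 (0.15) or 2 (0.13), with no filter (0.085) and with 6 arrays alone (0.058). LATS1 lost it with no filter (0.058) and without control 1 (0.056), control 3 (0.081) or YAP knockdown array 1 (0.096). LATS2, not called in the report, was called lower under median scaling (0.037), with the replicate block (0.044) and without control 1 (0.027), and TEAD1 without control 1 (0.027). Signal over background limits genes near the limit of detection: those undetected on all arrays of a group have lower bounds, and a change of a gene detected on only some arrays of its dim group rests partly on background.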
